A study of Mus musculus with 12 samples.

Results

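The regions described here lie at 10 genes of the neutrophil and myeloid program, Camp, Ngp, Ltf, Elane, Prtn3, Mpo, Cebpe, Csf2ra, Csf3r and Gfi1. They were taken from the authors' list of hypomethylated regions where the listed distance to 1 of these genes was at most 5000 bp, together with every tabulated candidate region between the first and the last such region of a gene. This gave 23 regions, 17 on the list and 6 others, of 107115 candidate regions and 35439 listed regions in all. The list holds regions at least 20 percentage points lower in the mutant in these same samples, so the losses below describe how the regions were chosen and are not tested as a result. DNA methylation was measured by whole-genome methylation sequencing in lineage-negative bone marrow progenitors of BALB/c mice, cells depleted of those with markers of mature blood lineages. Wild-type mice were compared with mice carrying a Dnmt1 mutation, written as dnmt1-/- in the labels and described by the series as a specific mutation modelled on hypomorphic missense alleles of fish. Each genotype had 6 samples, from 3 replicate numbers and 2 library kits, and 1 column of levels per replicate number, so n = 3 per genotype throughout. The sources used here do not give age, sex, pooling or the number of animals, so p-values measure only the spread between these columns, which may be technical. The files hold methylation levels and no expression, so the labelled cell type could not be set against marker expression.

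Dnmt1 is the maintenance methyltransferase, which restores methylation at CpGs of freshly replicated DNA. Neutrophils are made from granulocyte-monocyte progenitors in the marrow, and their granule proteins appear in order: the azurophil proteins myeloperoxidase, elastase and proteinase 3 in promyelocytes, then the specific granule proteins lactoferrin, cathelicidin and neutrophilic granule protein. The transcription factors Gfi1 and C/EBP epsilon are needed for this maturation, and the receptors for G-CSF (Csf3r) and GM-CSF (Csf2ra) carry the cytokine signals that sustain it. In bulk DNA a level is an average over all cells of the fraction, so a change within cells and a change in the mix of cells cannot be told apart.

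In 2 of these genes a listed region reached into the promoter window, the stretch from 250 bases before to 50 after a gene start in RefSeq (GRCm38.p6). These stretches are printed because the measured loss covers their CpGs, which are in capitals. For Ngp the 250 bases before the start (chr9:110419558-110419807, plus strand) all lay in the listed region and held 3 CpGs. For Csf2ra the 112 bases of the window inside the listed region (chr19:61228557-61228668, printed on the minus strand) held 11 CpGs.
Ngp: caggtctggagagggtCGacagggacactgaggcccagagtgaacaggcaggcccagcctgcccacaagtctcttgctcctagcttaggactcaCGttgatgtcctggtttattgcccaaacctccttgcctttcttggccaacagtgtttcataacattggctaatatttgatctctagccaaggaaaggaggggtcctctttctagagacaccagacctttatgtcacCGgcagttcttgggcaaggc
Csf2ra: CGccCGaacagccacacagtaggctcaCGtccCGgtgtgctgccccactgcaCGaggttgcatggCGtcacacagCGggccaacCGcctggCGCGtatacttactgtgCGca
A promoter window was in the RefSeq table for 9 of the 10 genes, with 10 windows in all, because Gfi1 had 2. Windows held between 2 CpGs (Mpo) and 23 CpGs (Csf2ra), with a median of 5, against a median of 7 in all 32851 windows of that length. A candidate region overlapped 3 member windows, those of Ngp, Csf2ra and Elane, and 11.4% of all windows. A listed region overlapped the windows of Ngp and Csf2ra, and 4.06% of all windows. Each member gene was taken because a listed region lay within 5000 bp, which 34.9% of protein-coding genes had. The rule itself thus raises both overlaps at member windows, so all windows are not a like background and no enrichment can be read from them.

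Over the 17 listed regions the mean level was 49.1% ± 5.43 in mutant and 74.9% ± 1.09 in wild-type replicates (SD, n = 3 each), and over the 6 regions between them 69.4% ± 2.29 and 84.0% ± 1.43. The median difference was -25.9 points in the listed regions, against -26.1 points in all 35439 listed regions. The limit of 20 points cuts both sets, and large losses were less marked at these genes. The mean difference was -25.9 against -28.4 points, and the lower quartile -28.8 against -31.8 points. Mutant and wild-type replicates did not overlap in 22 of the 23 regions, where the share over all candidate regions was 94.3%. limma, fitted over all candidate regions with Benjamini-Hochberg adjustment, called 22 of the 23 lower at an adjusted p under 0.05, where 93.5% of all candidate regions were called lower and 0.0485% higher. All 23 differences were negative. A loss of at least 20 points together with a limma call was found in 17 of the 23, the same regions as on the list, where it was found in 34.4% of all candidate regions. The first counts are near the background, and the last restates how the regions were chosen. By their name the candidate regions are themselves differentially methylated regions from the caller metilene, so these shares do not hold for the genome at large. The limma calls are therefore only a description, also for the 6 regions not on the list. The listed members were less methylated in the wild type than listed regions in general, with a median of 75.2% against 80.3%. A level of 80% or more in the wild type was found in 3 of the 17 listed members and in 51.2% of all listed regions.

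**Figure D1:**
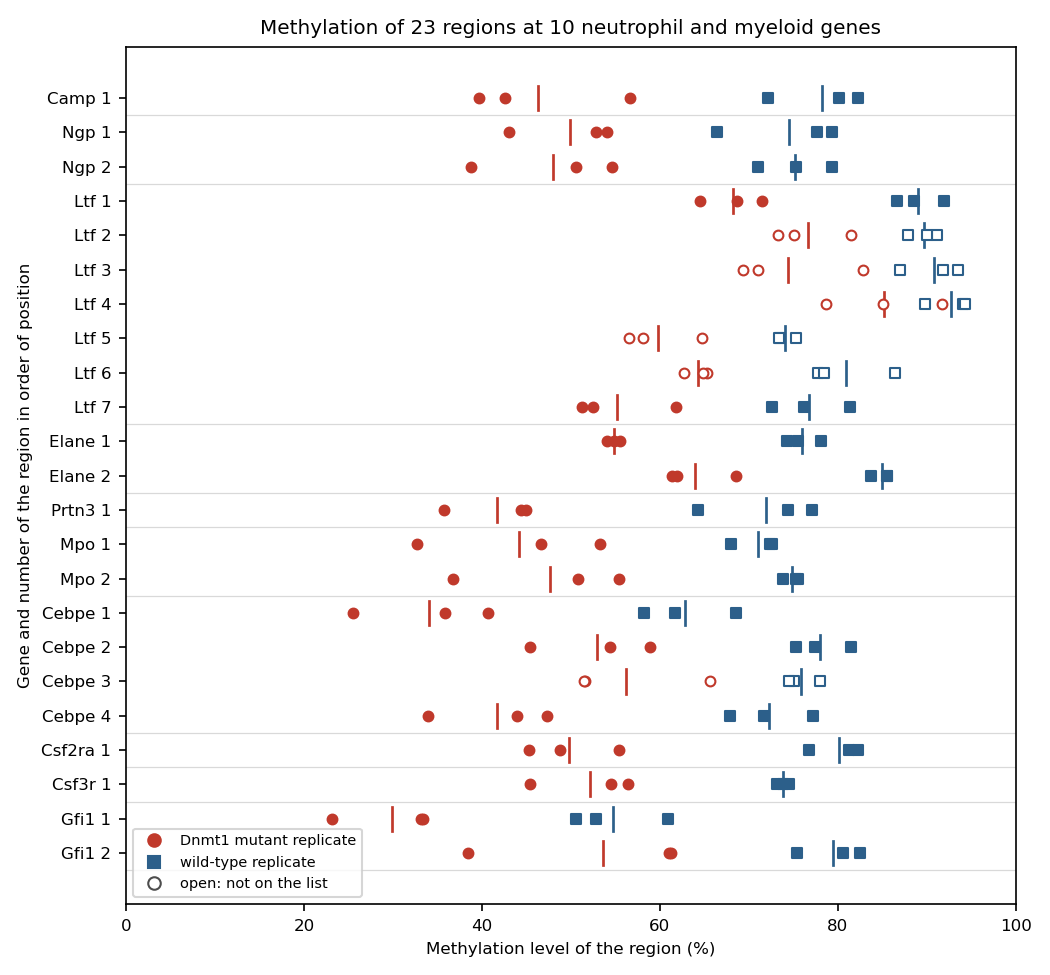
Methylation level (%, horizontal axis) of each of the 23 regions, named by gene and numbered by position on the chromosome. Circles are the 3 Dnmt1 mutant replicates, squares the 3 wild-type replicates, and bars their means, with open symbols for the 6 regions that are not on the authors' list. Mutant and wild-type replicates are separated in 22 regions and overlap in region 4 of Ltf.

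Among the specific granule genes, Camp had the largest loss of all 23 regions and Ltf the smallest. Camp (ENSMUSG00000038357.10) encodes the cathelicidin precursor, from which an antimicrobial peptide is cut. Its only region, 12 CpGs in the first part of the gene and 183 to 1064 bp from the start (chr9:109848392-109849273), had levels of 39.6%, 42.5% and 56.6% in the mutant replicates and 82.3%, 72.2% and 80.1% in the wild-type replicates. The means were 46.3% ± 9.09 and 78.2% ± 5.31 (SD, n = 3 each), a difference of -31.9 points. Mutant replicates 1 and 2 lay well below replicate 3, yet the nearest mutant and wild-type replicates were still 15.5 points apart.

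Ngp (ENSMUSG00000032484.8), which encodes a cystatin-like protein of neutrophil granules, lost methylation at both ends of the gene. The region over its start (chr9:110419359-110420175, 14 CpGs), which holds the promoter stretch printed above, had levels of 43.0%, 52.8% and 54.0% in mutant and 77.6%, 66.4% and 79.4% in wild-type replicates. The region over its end (chr9:110421730-110423278, 10 CpGs) had 38.8%, 50.6% and 54.7% against 79.3%, 71.0% and 75.3%. The differences were -24.5 and -27.2 points, and in both regions mutant replicate 1 was the lowest and wild-type replicate 2 was the lowest of its group.

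Ltf (ENSMUSG00000032496.7) encodes lactoferrin, which binds iron and withholds it from bacteria. It held 7 of the 23 regions, all between 2727 and 9565 bp from its start in a gene of 23474 bp, and only the first and the last of them were on the list. The last region (chr9:111028159-111028857, 11 CpGs) had levels of 51.3%, 52.5% and 61.8% in mutant and 72.6%, 76.2% and 81.3% in wild-type replicates, a difference of -21.5 points. The first (chr9:111022019-111022311, 10 CpGs) had 68.7%, 64.6% and 71.4% against 91.9%, 88.6% and 86.7%, a difference of -20.8 points. In the 5 regions between them the loss was smaller, with differences of -13.1, -16.4, -7.54, -14.2 and -16.6 points in order along the gene. The smallest of these belongs to the region with the highest methylation of all 23 (chr9:111024300-111025022), with 78.7%, 85.1% and 91.7% in mutant and 89.8%, 94.1% and 94.2% in wild-type replicates. There mutant replicate 3 lay above wild-type replicate 1, and this was the region not called by limma (adjusted p = 0.0571). It was called on a logit scale (limma adjusted p = 0.0279) and with a variance trend and robust variance moderation together (limma adjusted p = 0.0256). It was also called with the replicate number as a block and without mutant replicate 3, with limma adjusted p of 0.0250 and 0.00729. Over its 7 regions Ltf had 69.1% ± 3.54 in mutant and 84.8% ± 1.44 in wild-type replicates, a difference of -15.7 points. Over the 2 listed ones the difference was -21.2 points, a contrast that the same limit largely sets.

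The member regions of the azurophil granule genes all lay toward the end of the gene or beyond it, and in the wild type the tabulated regions nearer the start of the gene were less methylated than these. Mpo (ENSMUSG00000009350.13) encodes myeloperoxidase, the enzyme that makes hypochlorous acid. Its listed region of 27 CpGs (chr11:87802527-87803539) had levels of 32.7%, 46.7% and 53.2% in mutant and 72.3%, 68.0% and 72.6% in wild-type replicates. The region over the gene end (chr11:87803942-87804699, 10 CpGs) had a loss of like size, with 36.8%, 50.8% and 55.4% against 73.8%, 75.6% and 75.3%. The differences were -26.8 and -27.2 points. The mutant replicates spread over 20.5 and 18.7 points, with replicate 1 the lowest in each, whereas the wild-type replicates of the second region had an SD of 0.969 points. Without mutant replicate 1 the mean difference of Mpo was -21.4 points, against -27.0 with it.

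Outside the rule, 3 more candidate regions in the body of Mpo completed a profile along the gene. From the start, the wild-type level was 26.1% ± 6.26 (1417 to 1890 bp from the start), 43.4% ± 9.20 (3444 to 3936 bp) and 66.6% ± 3.31 (7815 to 8722 bp), and then 71.0% and 74.9% in the member regions. The mutant had 15.9% ± 1.73, 27.7% ± 7.70, 51.1% ± 4.12, 44.2% and 47.7% at the same places. The differences were -10.2, -15.7 and -15.5 points before the member regions. Both genotypes thus had their lowest tabulated level near the start of the gene, and the groups overlapped in the second of these regions.

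Elane (ENSMUSG00000020125.6) and Prtn3 (ENSMUSG00000057729.12) are neighbours on chromosome 10 and encode neutrophil elastase and proteinase 3, serine proteases of azurophil granules. Prtn3 had its member region near the gene end (chr10:79882730-79882919, 10 CpGs), with levels of 35.8%, 44.4% and 45% in mutant and 77.1%, 74.4% and 64.2% in wild-type replicates, a difference of -30.2 points. Elane had a region over its end (chr10:79887741-79888358, 19 CpGs) with 55.5%, 54.8% and 54.1% against 78.1%, 75.6% and 74.3%. A further one lay 485 bp downstream in the authors' list (chr10:79888700-79888976, 17 CpGs), with 61.9%, 68.5% and 61.3% against 85.6%, 83.7% and 85.5%. The Elane differences were -21.2 and -21.0 points, and its mutant replicates were the closest of any member gene, with an SD of 2.07 points in the gene mean.

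Near the gene starts of this pair, and between the genes, the levels were lower in both genotypes than in the member regions. A candidate region 760 to 1218 bp inside Prtn3 had 14.2% ± 4.25 in mutant and 24.3% ± 2.13 in wild-type replicates. A region between both genes (chr10:79883389-79883675) had 9.41% ± 3.35 and 20.6% ± 1.56. It lay past the end of Prtn3, 3722 to 4008 bp from the start of that gene of 3507 bp, and upstream of Elane. In Prtn3 the level thus did not simply rise from start to end and beyond. The region over the start of Elane (chr10:79886214-79887154) had 35.9%, 36.2% and 33.6% in mutant and 59.5%, 53.1% and 47.2% in wild-type replicates, a difference of -18.0 points. It covered the last 98 of the 250 bases before the start. These 3 regions were not on the list, and their replicates did not overlap between genotypes.

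The promoter windows of Mpo, Prtn3 and Elane shared a sequence feature that the rule did not use. All 3 held GAGGAAGT, the core of the element bound by PU.1, a regulator of myeloid genes, on the strand of the gene. Of the 10 member windows 3 held it on either strand, against 3.20% of all 32851 windows. The motif was chosen after the windows had been seen, and a match is not evidence of binding. The 250 bases before the start are printed for these 3 genes with the motif in capitals, for Mpo (chr11:87793534-87793783), Prtn3 (chr10:79879417-79879666) and Elane (chr10:79886062-79886311), all on the plus strand.
Mpo: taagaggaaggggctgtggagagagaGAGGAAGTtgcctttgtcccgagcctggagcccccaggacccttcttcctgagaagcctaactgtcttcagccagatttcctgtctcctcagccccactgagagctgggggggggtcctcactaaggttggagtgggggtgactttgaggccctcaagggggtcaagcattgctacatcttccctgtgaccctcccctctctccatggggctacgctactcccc
Prtn3: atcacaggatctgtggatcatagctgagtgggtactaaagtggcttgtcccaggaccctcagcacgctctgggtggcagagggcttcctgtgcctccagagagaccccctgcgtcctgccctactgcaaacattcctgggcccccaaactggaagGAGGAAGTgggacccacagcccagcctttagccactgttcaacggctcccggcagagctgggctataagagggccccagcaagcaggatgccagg
Elane: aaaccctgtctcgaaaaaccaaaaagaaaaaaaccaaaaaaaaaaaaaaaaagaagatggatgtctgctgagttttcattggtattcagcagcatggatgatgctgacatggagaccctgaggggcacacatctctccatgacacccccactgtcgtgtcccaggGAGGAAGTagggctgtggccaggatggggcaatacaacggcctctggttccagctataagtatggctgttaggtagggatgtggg
The motif began 224 bases before the start in Mpo, 95 bases before it in Prtn3 and 85 bases before it in Elane. In Elane it lay in the part covered by the candidate region over the start, and no candidate region covered it in Mpo or Prtn3. These stretches held 2, 4 and 3 CpGs. TTNNGNAA, a C/EBP-type motif read on both strands, was in 4 of the 10 member windows and in 40.7% of all windows, and in none of the 3 with GAGGAAGT.

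**Figure D2:**
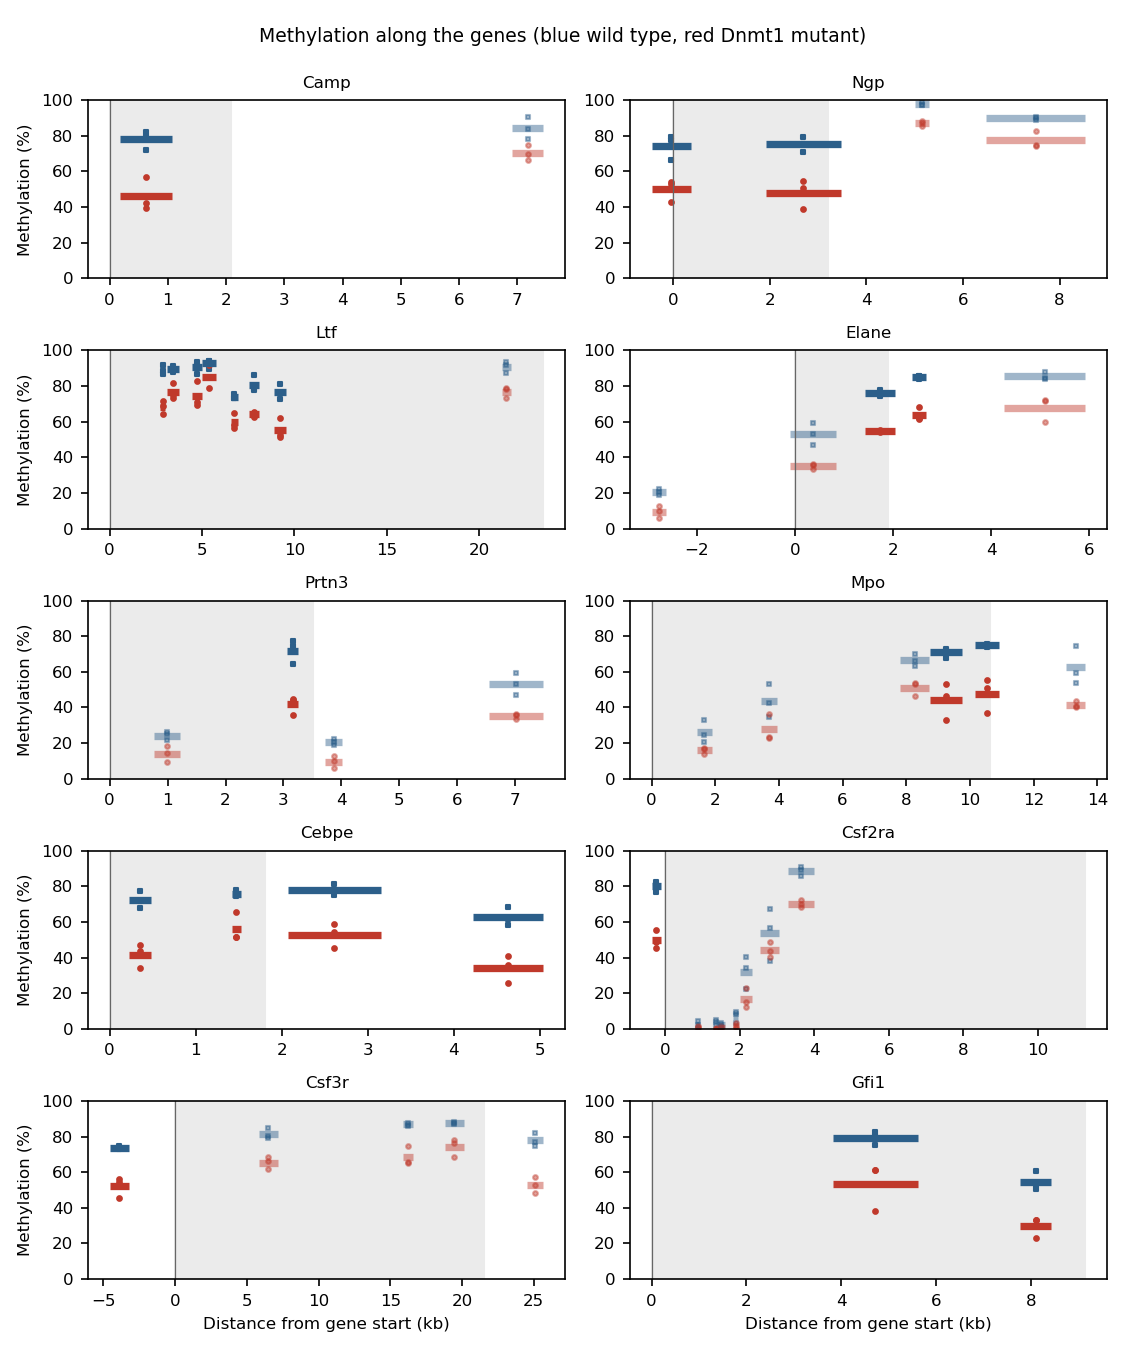
Methylation level (%) against distance from the gene start (kb) for the 10 genes, read in the direction of transcription, with the RefSeq gene span shaded grey. Bars are the mean of a region over its length (blue wild type, red Dnmt1 mutant), small points its 3 replicates, and pale colours the candidate regions outside the rule. In Mpo the wild-type level rises from 26.1% near the start to 74.9% at the end. In Csf2ra the wild-type level is under 10% in each candidate region between 833 and 1958 bp, with no level given between these regions.

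The transcription factor genes Cebpe and Gfi1 differed in where their regions lay. Cebpe (ENSMUSG00000052435.6) encodes C/EBP epsilon, which turns on specific granule genes late in maturation. Near its start, a region of 13 CpGs (chr14:54711692-54711948, 226 to 482 bp inside the gene) had the largest loss of the gene, with levels of 33.9%, 47.3% and 43.9% in mutant and 67.8%, 71.7% and 77.2% in wild-type replicates. The difference was -30.5 points, and the nearest replicates of the 2 genotypes were 20.5 points apart. A region just below the limit of 20 points, between the listed ones and near the gene end (chr14:54710649-54710755), had 51.6%, 65.7% and 51.4% against 75.1%, 78.0% and 74.6%. Both other regions lay downstream, 259 and 2419 bp from the gene in the authors' list, and differed by -25.2 and -28.8 points. The outermost (chr14:54707130-54707944, 16 CpGs) was among the least methylated members, with 34.0% ± 7.75 in mutant and 62.8% ± 5.27 in wild-type replicates.

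Gfi1 (ENSMUSG00000029275.17) encodes a zinc finger repressor needed for neutrophil formation. Its region in the middle of the gene (chr5:107720185-107721980) was 1795 bp long and held 97 CpGs, the most of any member, where the median listed region held 12. Mutant replicates 2 and 3 had 61.1% and 61.2% there and replicate 1 had 38.5%, against 75.4%, 82.5% and 80.6% in the wild type. The difference of -25.9 points came with the largest mutant SD of all members, 13.1 points, and was -18.4 points without mutant replicate 1. Near the gene end a region of 10 CpGs (chr5:107717379-107718023) had 23.1%, 33.3% and 33.1% against 50.6%, 52.8% and 60.9%. It was the least methylated member in both genotypes, and its difference was -24.9 points.

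Among the receptor genes, Csf2ra lost methylation before its start and Csf3r further upstream. Csf2ra (ENSMUSG00000059326.6) encodes the alpha chain of the GM-CSF receptor, which binds the ligand. Its region of 13 CpGs (chr19:61228557-61228822), of which part is printed above, had levels of 55.4%, 45.2% and 48.8% in mutant and 76.8%, 82.2% and 81.2% in wild-type replicates. The difference was -30.3 points, with a gap of 21.3 points between the nearest replicates, the widest of all 23 regions, and here mutant replicate 1 was the highest of the mutants.

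Inside Csf2ra, the candidate regions outside the rule ran from almost no methylation to a high level within a few kilobases. From 833 to 1958 bp from the start, 4 regions had wild-type means of 2.33%, 3.70%, 2.23% and 7.17% and mutant means of 0.926%, 0.111%, 0.567% and 1.75%. Farther in, 3 regions had 32.2%, 54.1% and 88.7% in the wild type and 16.9%, 44.4% and 70.2% in the mutant, the last of them 3309 to 4006 bp from the start. Replicates of the genotypes overlapped in 4 of these 7 regions, and at levels this low a loss of 20 points is not possible in the first 4.

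Csf3r (ENSMUSG00000028859.14) encodes the G-CSF receptor, the main cytokine receptor of neutrophil production. Its member region lay 4353 bp upstream in the authors' list, just inside the distance limit (chr4:126018883-126020197, 12 CpGs), with 45.5%, 54.5% and 56.4% in mutant and 73.2%, 74.5% and 73.8% in wild-type replicates. The difference was -21.7 points. The only listed region assigned to any of the 10 genes beyond the limit was also upstream of Csf3r, at 34772 bp, and had a larger loss, with 31.2% ± 4.93 in mutant and 79.8% ± 2.38 in wild-type replicates (SD, n = 3 each; chr4:125989105-125989778). Within Csf3r, 3 candidate regions differed by -16.0, -18.1 and -13.2 points from wild-type levels of 81.4%, 86.8% and 87.6%, and none of them was on the list.

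**Figure D3:**
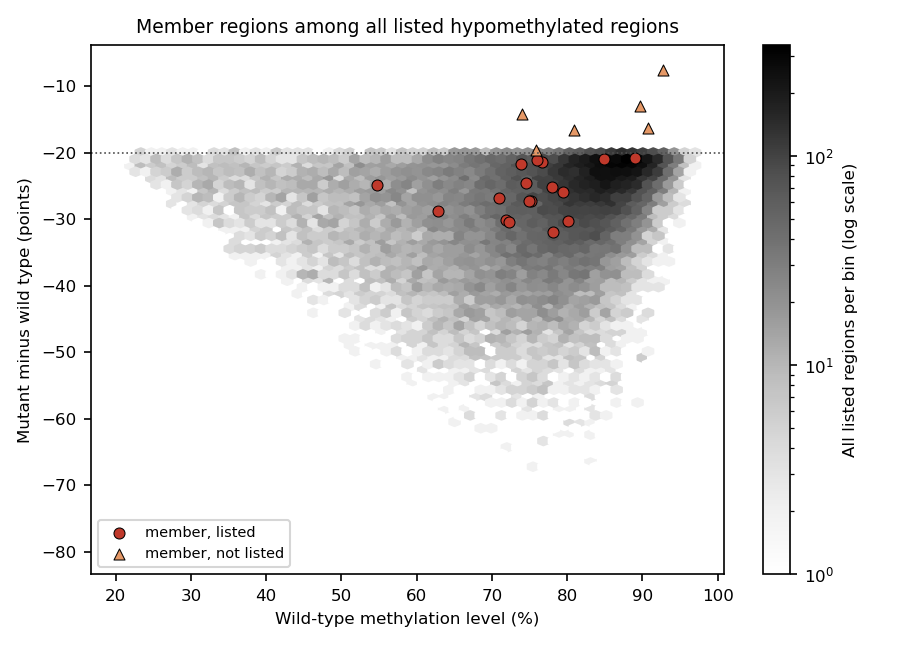
Difference between mutant and wild type (percentage points, vertical axis) against wild-type level (%), with all 35439 listed regions as grey bins shaded by number on a log scale. Circles are the 17 listed member regions and triangles the 6 others, and the dotted line is the limit of 20 points. Listed members lie between -31.9 and -20.8 points, inside the cloud of listed regions.

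By position, 14 of the 23 regions lay within a gene, 3 covered a gene end, 1 covered a gene start, 3 were downstream and 2 upstream. Of the 14 inside a gene, 5 had their midpoint in the second part of its length and 9 in the first, 7 of them in Ltf. The listed members held a median of 13 CpGs over 757 bp, against 12 CpGs over 720 bp in all listed regions. In the authors' list, 4 of the 17 listed members had a metilene q under 0.05, where 23.3% of all listed regions did. They lay in Mpo, Cebpe, Csf2ra and Gfi1, and the lowest was that of the long Gfi1 region (q = 8.5e-26). No listed member at Camp, Ngp, Ltf, Elane, Prtn3 or Csf3r was under this limit. A loss of 30 points or more was found in 4 of the 17 (Camp, Prtn3, Cebpe and Csf2ra) and in 31.3% of all listed regions. Across the 17 listed members the correlation between the number of CpGs and the difference was r = 0.02. It is given as a description of regions that share libraries. The Gfi1 region of 97 CpGs weighs heavily in it, as the next highest number was 27, in Mpo.

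Replicates of both genotypes were spread more widely at the listed members than over the list as a whole, a difference that was not tested. Mutant replicates 1, 2 and 3 differed from the wild-type mean by -31.9, -24.3 and -21.3 points in the listed members, and by -30.7, -28.4 and -26.0 points over all listed regions. The median SD between mutant replicates was 6.05 points in the listed members and 4.24 points over all listed regions, and between wild-type replicates 3.69 and 2.68 points. Mutant replicate 1 was the lowest of the mutants in 16 of the 23 regions and in 7 of the 10 gene means, where the share over all candidate regions was 59.7%. Ltf, Elane and Csf2ra were the exceptions among the gene means. The mean difference over the 23 regions was -22.9 points, and -20.4 points without mutant replicate 1. Whether the mix of cells in this replicate has a part in it was not tested.

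**Figure D4:**
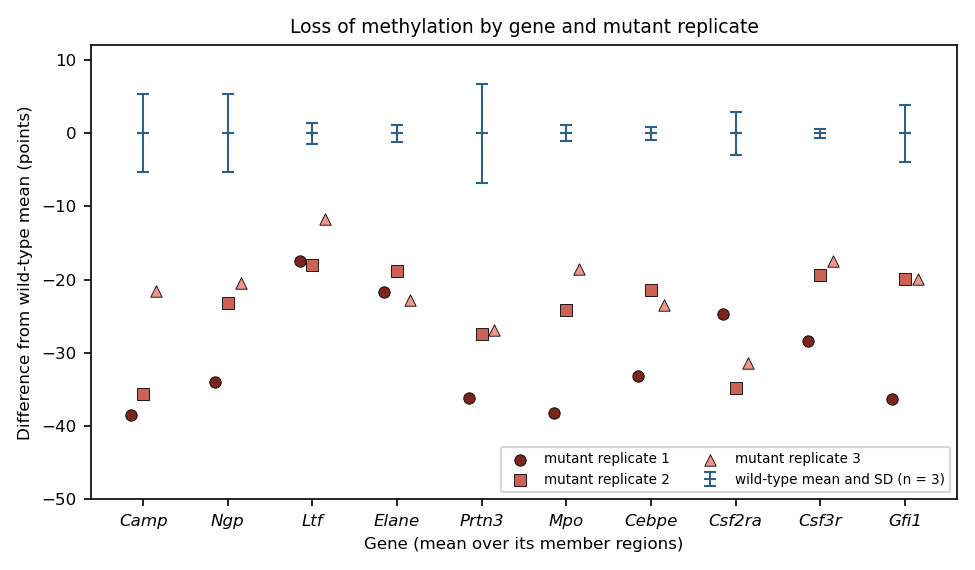
Difference of each mutant replicate from the wild-type mean (percentage points), averaged over the member regions of each gene, with the wild-type SD (n = 3) as bars at 0. Mutant replicate 1 is the lowest in 7 genes, with the widest spread of the 3 replicates in Mpo, and it is the highest in Csf2ra.

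Other genes of the neutrophil and myeloid program were taken from 3 lists and counted as holding a listed region within 5000 bp, which 34.9% of 21900 protein-coding genes did. Of the neutrophil granule and effector genes 12 of 28 held one, of the myeloid receptor and surface genes 8 of 22, and of the myeloid transcription factors 11 of 20. The largest losses among the effector genes were in Mmp9, the gelatinase of neutrophil granules, with 26.9% ± 4.98 in mutant and 73.8% ± 9.83 in wild-type replicates, and in Mmp25, a membrane-bound metalloprotease, with 27.1% ± 3.58 and 72.9% ± 1.86 (SD, n = 3 each). Their differences of -46.9 and -45.8 points exceeded those of all 23 member regions. Among receptors, Cd177, a neutrophil surface glycoprotein, differed by -33.8 points and Tyrobp, a signalling adaptor, by -31.7 points. Among transcription factors, Klf5 differed by -43.7 points and Spi1, which encodes PU.1, by -36.7 points. The median difference over the listed regions of these 3 lists was -26.8, -26.1 and -24.5 points, against -26.1 points over all listed regions.

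Marker genes of the other cells that the fraction could hold had listed regions as well. The counts were 4 of 12 for B lineage genes, 8 of 12 for T and NK lineage genes, 6 of 12 for erythroid and megakaryocyte genes and 8 of 12 for stromal and endothelial genes. The largest losses were -46.3 points at Ebf1 and -43.4 at Cd22, -56.5 at Bcl11b and -53.5 at Thy1, -47.3 at Slc4a1 and -37.1 at Vwf, and -60.3 at Col1a1 and -42.7 at Runx2. All 8 of these exceeded the largest loss at a member region. Genes differ in length and in the number of listed regions, from 2 at Thy1 and Cd22 to 21 at Bcl11b among those named, and the lists were not compared by a test.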

How the data were processed

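Methylation levels of lineage-negative marrow progenitors from 12 samples, 6 per genotype, were used. The authors deposited levels as a fraction per candidate region in 6 columns, here multiplied to percent, and a list of hypomethylated regions with mean levels as fractions, a difference of fractions (a score), the count of CpGs, the metilene q-value and an adjusted p-value of a further test. The caller was metilene, which the names of the deposited files give, and the build was mm10, which the submitters' processing notes give. No aligner, and no statement that both kits were merged, is given in the sources used here. No coverage accompanies the levels, so the depth is unknown, no coverage minimum was set and no counting interval is given.

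Columns were assigned to genotypes by name. limma 3.58.1 in R 4.3.3 was fitted to the level in percent over all candidate regions, with p adjusted by Benjamini-Hochberg and called under 0.05, and was tested on simulated data. Levels are means of replicate columns, and differences are mutant minus wild type. Gene spans and promoter sequences came from RefSeq tables of GRCm38.p6 (mm10), with strand from the list. Exons were not analysed here. Alternatives were another scale, variance trend together with robust variance moderation, replicate block, threshold, distance limit, region set and leaving out each replicate. All 10 members were named, with the region of largest loss in full, and 2 genes per list by largest loss. The members and lists were chosen with earlier results of these data known. Python 3.11.15, numpy 2.4.6, pandas 2.3.3 and matplotlib 3.10.9 were used.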

Additional observations from a re-analysis of the deposited data

How the results depend on the processing

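Leaving out each replicate in turn gave mean differences over the 23 regions from -24.9 to -20.4 points, and the number of these regions called lower by limma stayed between 22 and 23. That number was 23 with the replicate number as a block (replicate block), 20 with a distance limit of 1000 bp, which leaves no region at Csf3r, and 17 with a difference of 20 points required or with listed regions only. Over all candidate regions limma called 99903 lower with the replicate block. Correlations of same-numbered deviations were 0.0372, 0.0049 and 0.05 for replicates 1, 2 and 3. Those of replicates 1 and 3 were the highest of all pairs, but wild-type replicate 2 correlated best with mutant replicate 1 (0.0117). Values this small cannot decide whether the replicate numbers pair the samples. Refits of single regions kept the call in 226 cases and changed it in 4, all in region 4 of Ltf. With a difference of 20 points required, 36834 of all candidate regions were called lower, against 100125. The number called higher was 52, 196 on a logit scale and between 30 and 63 without a replicate, the lowest without wild-type replicate 1. For Ltf the mean difference was -21.2 points with listed regions only, against -15.7, as the list's limit of 20 points largely sets. With a metilene q under 0.05 required, 7 of 28 effector, 1 of 22 receptor, 6 of 20 transcription factor, 3 of 12 B lineage, 6 of 12 T and NK lineage, 3 of 12 erythroid and megakaryocyte and 5 of 12 stromal and endothelial genes held a listed region, as did 14.3% of protein-coding genes. The authors' list was made on these samples, no depth is known, and 3 replicates per genotype limit the precision of every level.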

Other observations

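Within 5000 bp of the spans of the 10 genes lay 23 further candidate regions that the rule did not take, at 8 of the genes. Their median difference was -13.9 points from a median wild-type level of 62.6%, and 2 of them were on the authors' list under other genes. The one downstream of Mpo was listed for Lpo, which encodes lactoperoxidase, with 40.1%, 40.8% and 43.8% in the mutant and 74.4%, 53.9% and 59.6% in the wild type, a difference of -21.1 points. The one downstream of Csf3r was listed for Mrps15, a mitochondrial ribosomal protein gene, with 53.1%, 57.3% and 48.6% against 77.0%, 74.7% and 81.9%, a difference of -24.9 points. Around Camp and Ngp the 3 flanking regions had higher wild-type levels than the member regions of these genes, 84.2% near Camp and 97.8% and 89.8% near Ngp, and differed by -13.9, -10.9 and -12.3 points. Cebpe and Gfi1 had no candidate region outside the rule within this distance. limma called 18 of the 23 lower, where 93.5% of all candidate regions were. Those not called all lay inside Csf2ra, with wild-type means of 2.33%, 3.70%, 2.23%, 7.17% and 54.1%.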
